A study of Drosophila melanogaster with 27 samples.

Results

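The neuropeptide precursor mRNAs of the fly head were followed through a pull-down of the RNA-binding protein Fmr1 in Ythdf mutant and wild-type pupae. The set is a list of 35 FlyBase symbols, matched to the rows of the deposited table of counts by gene identifier. The table held 34 of them among 17807 genes. Nplp2 was not matched to a row and is not analysed here. Of the 34, 32 had enough counts to be tested, against 11469 genes in the whole series, and ETH and Pburs fell below the count filter.

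Neuropeptides and peptide hormones are cut from longer precursor proteins that enter the secretory pathway, are cleaved and often amidated, and are stored in dense-core vesicles until release. Most act on G protein-coupled receptors, and the insulin-like peptides act on a receptor tyrosine kinase. In flies each precursor is typically made by a small, fixed set of neurons or endocrine cells, which control feeding, water balance, moulting, sleep and growth. Fmr1 binds mRNAs and regulates their translation, and loss of its human relative causes fragile X syndrome. Ythdf is a cytoplasmic protein that reads the RNA mark m6A.

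Heads of pupae (200 per genotype) were lysed and each lysate was divided into an input, a pull-down with Fmr1 antibodies and a pull-down with mouse IgG, which is the background control. The Ythdf mutant groups, with the genotype Ythdf#0/#0 and a stock labelled CG6422, had 4 libraries each of Fmr1, IgG and input (replicates 1, 2, 3 and 7). The wild-type groups, from strain w1118, had 5 each (replicates 1, 2, 3, 5 and 7), which makes 27 libraries of total RNA. The labels give the whole brain as the source while the protocol describes whole heads, and photoreceptor and muscle markers were abundant in all libraries (summed levels of at least 7783 and 17590 CPM). The labels describe neither the lesion of the mutant nor the sex or exact age of the pupae. The title asks whether Ythdf changes which mRNAs Fmr1 selects. Because the RNA is bulk, fewer cells of a type and less RNA per cell cannot be told apart.

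Depth differed most for the IgG libraries. Counts in genes ran from 10726339 to 54195136 in mutant Fmr1 libraries, 274951 to 3052311 in mutant IgG libraries and 9207492 to 15459370 in mutant inputs. They ran from 14843961 to 29699547 in wild-type Fmr1 libraries, 196933 to 5879253 in wild-type IgG libraries and 5623123 to 13240187 in wild-type inputs. Levels are given in CPM, counts scaled to library size with the TMM method, and 1 count is worth up to 3.26 CPM in a mutant IgG library and 4.8 CPM in a wild-type one. An IgG library held counts for 19 to 34 of the 34 precursors. Ythdf mRNA averaged 33.2 ± 3.26 CPM in mutant inputs and 61.9 ± 5.18 CPM in wild-type inputs (SD, n = 4 and 5), with ranges of 29.4 to 36.3 and 55.5 to 69.1 CPM that do not overlap (log2 fold change −0.90 ± 0.32, SE, adjusted p = 0.107). The mutant thus still held reads of the gene. Fmr1 mRNA averaged 70.2 ± 5.46 CPM in mutant inputs and 71.0 ± 10.9 CPM in wild-type inputs.

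In the inputs, a few precursors held most of the neuropeptide mRNA. The 34 precursors together made up 666.0 to 812.7 CPM in mutant inputs and 739.7 to 840.6 CPM in wild-type inputs. The 10 most abundant held 82.2% of that sum in mutant inputs and 84.2% in wild-type inputs, and the top 3 held 40.1% and 45.2% of it. Per kilobase of exon, Nplp3, a precursor first found among brain peptides, stood far above the rest with a level of 193.8 ± 74.5 CPM per kb in mutant inputs and 261.8 ± 68.8 CPM per kb in wild-type inputs. Its 4 mutant inputs held 78.7, 88.2, 86.2 and 164 CPM, against 175, 93.1, 139, 180 and 118 CPM in the 5 wild-type inputs. These ranges overlap, and the mutant library of replicate 7 lies within the wild-type range.

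The peptides that act as transmitters and modulators in many brain circuits came next. The level of sNPF, short neuropeptide F of feeding and olfaction, was 37.6 ± 1.36 CPM per kb in mutant inputs and 45.9 ± 6.80 CPM per kb in wild-type inputs. SIFa, made by a few large neurons of the dorsal brain, had 28.2 ± 15.8 CPM per kb in mutant inputs and 37.7 ± 12.6 CPM per kb in wild-type inputs. Nplp1, whose precursor yields several brain peptides, had 34.1 ± 2.08 CPM per kb in mutant inputs and 35.8 ± 7.10 CPM per kb in wild-type inputs. Ilp6, an insulin-like peptide of fat body and glia, had 29.3 ± 5.19 and 24.6 ± 4.92 CPM per kb in mutant and wild-type inputs. Neighbours in this order, from sNPF to Ilp6, differ by less than their spread in at least 1 genotype.

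Ms, the myosuppressin that slows visceral muscle, Proc, the muscle-stimulating proctolin, ITP, the ion transport peptide, Dh31, the calcitonin-like diuretic hormone, and AstC followed in wild-type inputs with means of 14.0 to 23.7 CPM per kb. Pdf of the clock neurons had 13.6 ± 2.34 CPM per kb in mutant inputs and 12.9 ± 3.02 CPM per kb in wild-type inputs. The insulin-like peptides of the brain's insulin-producing cells lay close together in wild-type inputs, at 7.51 ± 2.24 CPM per kb for Ilp2, 8.09 ± 1.49 for Ilp3 and 8.22 ± 1.79 for Ilp5. The corresponding mutant means were 11.1 ± 3.74, 11.1 ± 3.61 and 9.30 ± 2.87 CPM per kb. Among the hormones of moulting and eclosion, Eh had 6.31 ± 1.39 CPM per kb in mutant inputs and 5.50 ± 2.12 CPM per kb in wild-type inputs. CCAP, Burs, ETH and Pburs were each at or below 2.13 CPM per kb on average in both genotypes. The memory gene amn was the lowest in the order, with 0.243 ± 0.107 CPM per kb in mutant inputs and 0.0822 ± 0.0784 in wild-type inputs.

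**Figure D1:**
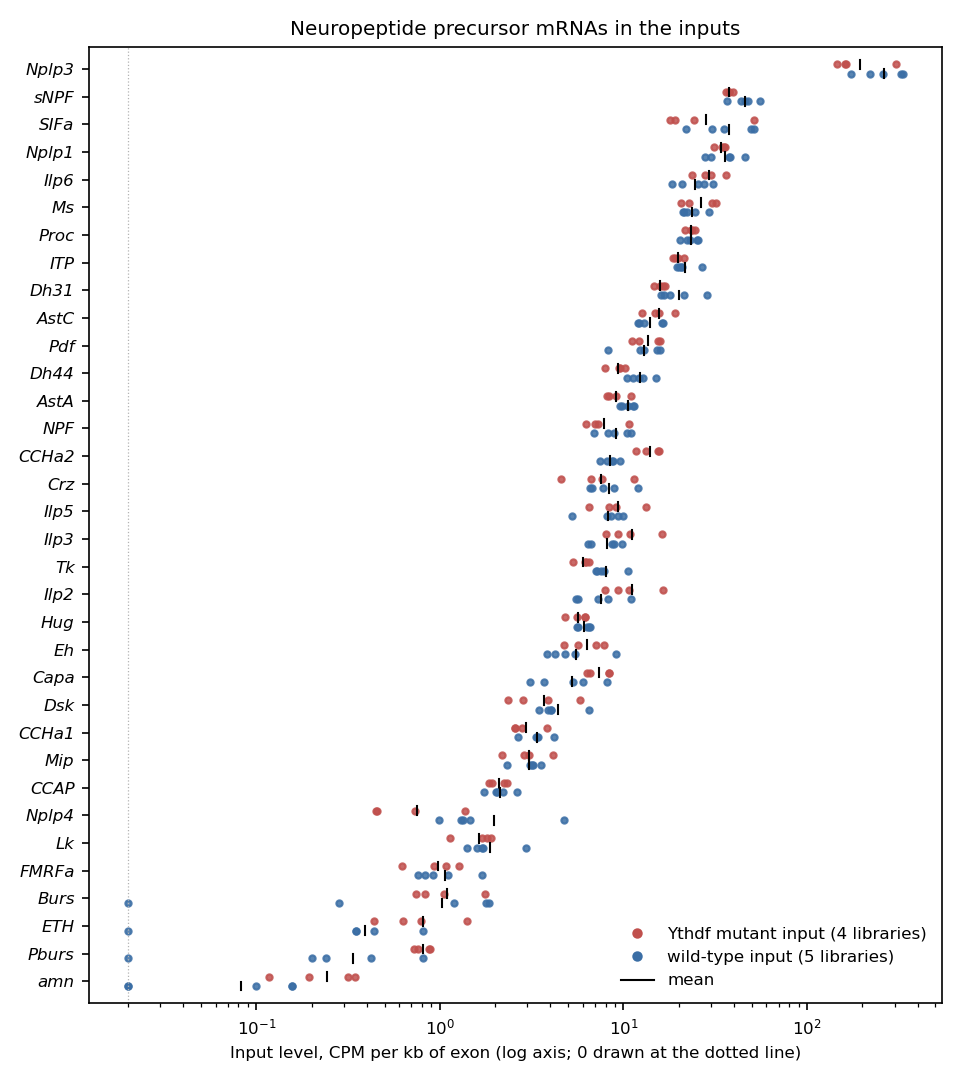
Level of each of the 34 precursor mRNAs in the inputs, in CPM per kb of exon on a log axis, with 1 point per library (Ythdf mutant above, wild type below) and a bar at the mean of each genotype. Nplp3 stands apart at the top with means of 193.8 and 261.8 CPM per kb in mutant and wild type, and amn, Pburs, ETH and Burs lie at the bottom, with some wild-type inputs at 0.

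The lowest precursors rest on few counts. ETH had 99 counts and Pburs 86 over all 27 libraries. Pburs had 0 counts in the 4 mutant IgG libraries, and a count of 0 allows up to 3 counts of the 5267918 in these libraries, or 0.569 CPM (counting error only). Lk, the leucokinin of water balance, shares 582 of its 626 exonic bases with an antisense RNA, and ETH shares 683 of 755 with another. The kit keeps the strand, but the strand setting of the counting is not given in the sources used here, so reads of these genes and their antisense partners cannot be told apart. ITP, amn, SIFa and CCAP share between 78 and 296 exonic bases with a gene on the other strand.

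The first question was which precursors the Fmr1 antibodies brought down beyond IgG. In the mutant, Dh44 and Proc were higher in Fmr1 libraries than in IgG libraries and CCHa2, Ilp2, Nplp3 and Ilp6 were lower. In wild-type libraries, Nplp1, sNPF, Dh44, Proc and Hug were higher and Nplp3, Nplp4, amn and Ilp2 were lower. These are 2 higher and 4 lower of 32 in the mutant, where 20.4% of all 11469 genes were called at an adjusted p under 0.05 in edgeR's quasi-likelihood test (10.8% higher and 9.61% lower). They are 5 higher and 4 lower in the wild type, where 33.4% of genes were called (16.4% higher and 17% lower). The precursors' counts lie near these shares. Their median log2 fold change was −0.13 in the mutant and 0.12 in the wild type, against −0.00075 and −0.03 over all genes. Of 10 general neuron markers, 8 were higher over IgG in each genotype, with medians of 0.97 in the mutant and 1.02 in the wild type. Over input 7 of these markers were higher in the mutant and 5 in the wild type, against 21.7% and 23.2% of all genes. In IgG over input 2 were higher and 2 lower in the mutant, and 2 higher and 3 lower in the wild type. The all-gene shares there were 5.46% higher and 5.77% lower, and 14.7% and 14.6%. The part of transcript length in the marker values was not tested.

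Dh44 is a diuretic hormone related to the corticotropin-releasing factor of vertebrates. It had 34.4, 24.8, 21.4 and 28.2 CPM in the 4 mutant Fmr1 libraries, against 19.6, 21.0, 13.9 and 17.2 CPM in the mutant IgG libraries. Its wild-type levels were 30.3, 35.5, 31.0, 29.4 and 29.4 CPM in Fmr1 libraries, against 9.61, 22.5, 21.9, 16.2 and 10.7 CPM in IgG libraries. The groups do not overlap in either genotype. The log2 fold change of Dh44 was 0.66 ± 0.22 (SE, adjusted p = 0.0322) in the mutant and 0.96 ± 0.20 (adjusted p = 0.000465) in the wild type. The mutant call was lost without any 1 of 5 libraries (mutant Fmr1 replicates 1 and 2 and mutant IgG replicates 1, 3 and 7; highest adjusted p = 0.166), while the wild-type call held without any 1 of the 10 libraries, with a highest adjusted p of 0.00737.

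Proc gave a mixed picture, being higher in Fmr1 than in IgG but lower in Fmr1 than in input. Its Fmr1 libraries had 34.9, 34.5, 24.4 and 29.5 CPM in the mutant, against 16.3, 14.5, 21.7 and 20.3 CPM in IgG and 46.2, 46.7, 48.8 and 43.0 CPM in input. The wild-type levels were 20.0, 29.9, 29.3, 26.1 and 22.2 CPM in Fmr1 libraries. The wild-type IgG libraries had 0, 12.5, 21.3, 14.1 and 16.8 CPM and the inputs 50.2, 49.7, 45.8, 40.2 and 44.1 CPM. The inputs lie above all pull-downs in both genotypes. Over IgG the log2 fold change was 0.70 ± 0.23 (adjusted p = 0.0345) in the mutant and 0.70 ± 0.21 (adjusted p = 0.0129) in the wild type, and over input it was −0.58 ± 0.20 (adjusted p = 0.0172) in the mutant and −0.85 ± 0.18 (adjusted p = 0.000257) in the wild type. The mutant call over IgG was lost without any 1 of 5 libraries, namely mutant Fmr1 replicates 1 and 2 and mutant IgG replicates 1, 2 and 7 (highest adjusted p = 0.162). The mutant call over input was lost without mutant input 1 or 7 or mutant Fmr1 replicate 3 (highest adjusted p = 0.0758).

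Nplp1 and sNPF, both among the most abundant precursor mRNAs, rose over IgG in the wild type. Nplp1 had 88.5, 139.5, 127, 85.2 and 104 CPM in wild-type Fmr1 libraries, against 48.0, 75, 90.2, 70.4 and 62.5 CPM in IgG libraries. Its groups overlap by 2 Fmr1 libraries that lie below the highest IgG library. Its log2 fold change was 0.41 ± 0.19 (adjusted p = 0.124) in the mutant and 0.62 ± 0.17 (adjusted p = 0.00571) in the wild type, and the wild-type call held without any 1 library. The levels of sNPF were 92.0, 162, 155, 89.4 and 98.5 CPM in wild-type Fmr1 libraries, against 48.0, 133, 65.7, 49.8 and 65.8 CPM in IgG libraries. The IgG library of replicate 2 stands apart from the other IgG libraries for sNPF. In the mutant its log2 fold change was 0.63 ± 0.26 (adjusted p = 0.0843), and with the replicate number as a block 0.61 (adjusted p = 0.0282). In the wild type it was 0.74 ± 0.23 (adjusted p = 0.0145), a call lost without wild-type Fmr1 replicate 2 or wild-type IgG replicate 5 (highest adjusted p = 0.0964).

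Hug, which encodes hugin of the feeding circuits, had a log2 fold change over IgG of −0.38 ± 0.33 (adjusted p = 0.443) in the mutant. It passed narrowly in the wild type at 0.73 ± 0.29 (adjusted p = 0.0483), and leaving out any 1 of 7 libraries ended the call (wild-type Fmr1 replicates 2, 3 and 7 and wild-type IgG replicates 1, 3, 5 and 7; highest adjusted p = 0.177). The higher calls depend on the scaling. With relative-log-expression size factors in place of TMM, the median of all genes moved by −0.15 in the mutant and −0.22 in the wild type. The calls became 0 higher and 4 lower in the mutant and 1 higher, Dh44, and 7 lower in the wild type, where CCHa2, Ilp6 and Capa were added to the lower ones. Over all genes they became 650 higher and 1338 lower in the mutant (1239 and 1102 with TMM) and 982 higher and 2563 lower for the wild type (1881 and 1954 with TMM). DESeq2 called 0 higher and 4 lower in the mutant and 1 higher and 9 lower in the wild type. An unadjusted p under 0.05 in edgeR was reached by 11 precursors in the mutant and 13 in the wild type. Over all genes it was reached by 33.1% in the mutant and 42.4% in the wild type, so these counts lie near the background.

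Nplp3, Nplp4 and Ilp2, among the precursors that fell below IgG, have transcripts of 538, 528 and 670 bases. The others, CCHa2, Ilp6 and amn, have longer ones of 1322, 1908 and 3953 bases. Nplp3 had 28.2, 20.7, 10.0 and 34.8 CPM in mutant Fmr1 libraries, against 65.3, 38.7, 38.0 and 67.2 CPM in mutant IgG libraries. Wild-type levels were 13.2, 13.1, 23.0, 28.6 and 19.4 CPM in Fmr1 libraries, against 62.4, 20.0, 77.3, 63.9 and 23.8 CPM in IgG libraries. The groups are apart in the mutant and overlap in the wild type, where IgG libraries 2 and 7 lie within the Fmr1 range. The log2 fold change of Nplp3 was −1.15 ± 0.40 (adjusted p = 0.0393) in the mutant and −1.33 ± 0.36 (adjusted p = 0.00561) in the wild type. The mutant call was lost without mutant Fmr1 replicate 2 or 3 or mutant IgG replicate 1 or 7 (highest adjusted p = 0.172), and the wild-type call without wild-type IgG replicate 3 (adjusted p = 0.0517).

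Ilp2, an insulin of the brain, had 2.35, 2.15, 2.31 and 2.70 CPM in mutant Fmr1 libraries, against 3.26, 4.84, 4.65 and 9.16 CPM in mutant IgG libraries. Its wild-type Fmr1 libraries had 0.996, 1.74, 1.51, 2.21 and 2.23 CPM, against 0, 5.00, 4.51, 2.17 and 6.48 CPM in IgG libraries. Its log2 fold change was −1.45 ± 0.38 (adjusted p = 0.00720) in the mutant and −1.46 ± 0.35 (adjusted p = 0.00198) in the wild type. Each call was lost without the IgG library of replicate 7 of its genotype (adjusted p = 0.237 in the mutant and 0.112 in the wild type). Nplp4 and amn fell by 2.54 ± 0.83 and 2.95 ± 0.72 in the wild type, on 107 and 162 counts over all libraries, and the Nplp4 call was lost without wild-type IgG replicate 7 (adjusted p = 0.0747; 3 of the 10 refits without 1 library gave a value). For amn, the wild-type IgG libraries of replicates 2 and 5 were at 0 and the others had 4.80, 3.87 and 3.73 CPM, and this call held without any 1 library.

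**Figure D2:**
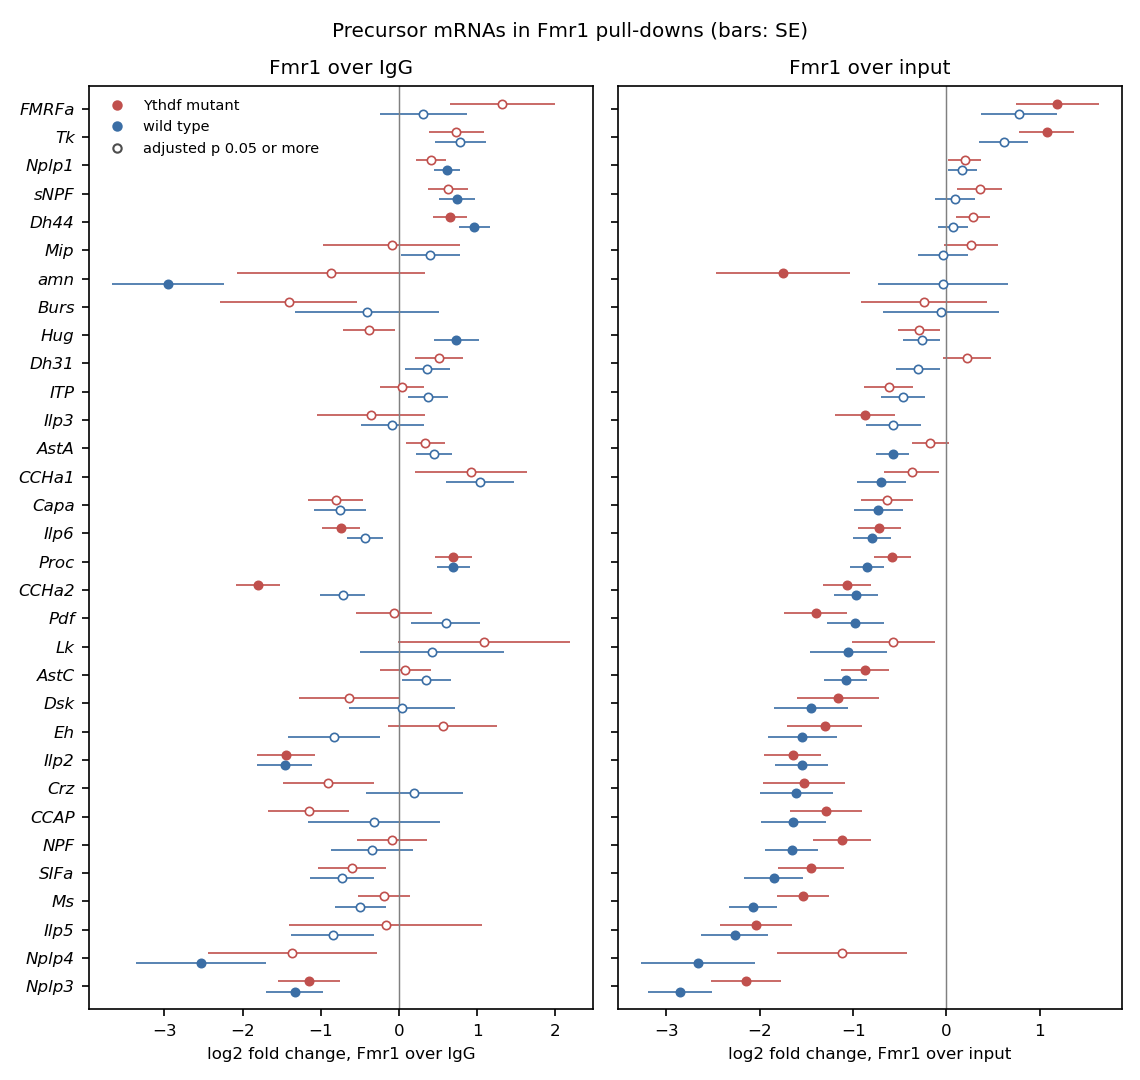
Log2 fold change of the 32 tested precursors for Fmr1 over IgG (left) and Fmr1 over input (right), with bars of 1 SE, Ythdf mutant above wild type in each row, and filled points for an adjusted p under 0.05. Over IgG the points scatter around 0, with 2 higher and 4 lower in the mutant and 5 higher and 4 lower in the wild type, while over input most lie to the left of 0, with 17 lower in the mutant and 20 lower in the wild type.

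Against the input, the precursor mRNAs were mostly lower in the Fmr1 pull-down. Of 32, 17 were lower and 2 higher in the mutant, where 46.5% of all genes were called (24.8% lower and 21.7% higher). By edgeR 20 were lower and 0 higher in the wild type, where 48.8% of all genes were called (25.6% lower and 23.2% higher). There 21 precursors had an unadjusted p under 0.05, against 54.5% of all genes, and DESeq2 also called 0 higher. The medians were −0.80 in the mutant and −0.83 in the wild type, against −0.11 and −0.04 over all genes. The 15 precursors lower in both genotypes make up 88.2% of the lower calls in the mutant and 75% of those in the wild type. The share of all genes called in both genotypes is not given here. The Fmr1 libraries are the same ones that were set against IgG, so these values are not independent of the previous ones.

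Ms showed the largest fall among precursors above 20 CPM per kb other than Nplp3. Its mutant Fmr1 libraries had 15.1, 9.47, 6.71 and 11.5 CPM, against 35.7, 24.4, 26.8 and 37.8 CPM in mutant inputs. The wild-type Fmr1 libraries had 5.80, 6.4, 4.93, 7.10 and 9.01 CPM, against 29.0, 26.1, 24.9, 25.2 and 34.5 CPM in wild-type inputs. Every Fmr1 library lies below every input of its genotype. The log2 fold change of Ms was −1.54 ± 0.28 (adjusted p = 5.78e-05) in the mutant and −2.07 ± 0.25 (adjusted p = 2.32e-07) in the wild type. Over IgG, Ms was not called, at −0.19 ± 0.33 in the mutant and −0.49 ± 0.33 in the wild type.

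Nplp3 fell the furthest over input among the precursors called in both genotypes, by 2.15 ± 0.37 (adjusted p = 5.09e-05) in the mutant and 2.86 ± 0.34 (adjusted p = 2.69e-07) in the wild type. Nplp4 had −1.12 ± 0.70 (adjusted p = 0.191) in the mutant and fell by 2.66 ± 0.61 (adjusted p = 0.000685) in the wild type.

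All 4 insulin-like peptides were lower over input in the mutant, and 3 of them in the wild type, against 24.8% and 25.6% of all genes. Ilp5 had 1.43, 1.26, 0.440 and 1.05 CPM in mutant Fmr1 libraries, against 4.36, 3.09, 4.00 and 6.34 CPM in mutant inputs. Its wild-type Fmr1 libraries had 0.462, 0.992, 0.754, 1.17 and 0.768 CPM, against 2.52, 4.46, 3.87, 4.07 and 4.72 CPM in wild-type inputs. The groups do not overlap. The log2 fold change of Ilp5 was −2.04 ± 0.38 (adjusted p = 0.000102) in the mutant and −2.27 ± 0.35 (adjusted p = 7.43e-06) in the wild type. That of Ilp2 was −1.65 ± 0.31 and −1.55 ± 0.29, and that of Ilp6 was −0.72 ± 0.23 and −0.80 ± 0.20, in mutant and wild type. Ilp3 fell by 0.87 ± 0.32 in the mutant (adjusted p = 0.0271), a call lost without mutant input replicate 1 or 7 or mutant Fmr1 replicate 3 (highest adjusted p = 0.196). Ilp3 in the wild type had −0.57 ± 0.29 (adjusted p = 0.111), and with the replicate number as a block −0.63 (adjusted p = 0.0331).

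Among the 14 brain transmitter-like peptides, 7 were lower and 2 higher over input in the mutant, and 8 were lower in the wild type. Over all genes 24.8% were lower and 21.7% higher in the mutant, and 25.6% were lower in the wild type. SIFa fell by 1.45 ± 0.35 in the mutant and by 1.85 ± 0.32 in the wild type, and without mutant input replicate 7 the mutant value was −0.91 (adjusted p = 0.0284). NPF, the fly relative of neuropeptide Y, fell by 1.12 ± 0.31 in the mutant and 1.66 ± 0.28 in the wild type. AstC, an allatostatin, fell by 0.87 ± 0.25 in the mutant and by 1.08 ± 0.23 in the wild type, and the mutant call was lost without mutant input replicate 7 (adjusted p = 0.0543). Dsk, the sulfakinin related to cholecystokinin, fell by 1.16 ± 0.44 in the mutant and 1.45 ± 0.39 in the wild type. Its mutant call was lost without mutant input replicate 1 or mutant Fmr1 replicate 2, 3 or 7 (highest adjusted p = 0.201). AstA and CCHa1 fell in the wild type, by 0.58 ± 0.18 and 0.70 ± 0.27. In the mutant they had −0.17 ± 0.20 and −0.37 ± 0.29, which did not pass. The CCHa1 call was lost without any 1 of 7 libraries (wild-type inputs 1, 2, 5 and 7 and wild-type Fmr1 replicates 2, 3 and 5; highest adjusted p = 0.0910). The mutant call of amn, at −1.75 ± 0.72, was lost without any 1 of 6 libraries (replicates 2, 3 and 7 of mutant Fmr1 and of mutant input; highest adjusted p = 0.135). Nplp1, sNPF and Mip, a peptide of sleep and satiety, had changes over input between −0.04 and 0.36 in both genotypes, none of which passed.

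Tk and FMRFa were the precursors called higher than input, and this was in the mutant. Tk encodes the tachykinins, and its mutant Fmr1 libraries had 16, 27.8, 27.6 and 11 CPM, against 8.65, 10.5, 10.1 and 9.99 CPM in mutant inputs. Its wild-type Fmr1 libraries had 14.9, 30.5, 27.1, 13.9 and 13.0 CPM, against 12.2, 12.7, 11.5, 11.7 and 17.1 CPM in wild-type inputs. In both genotypes the Fmr1 libraries of replicates 2 and 3 are about alike and above the others. The log2 fold change of Tk was 1.07 ± 0.29 (adjusted p = 0.00348) in the mutant and 0.61 ± 0.26 (adjusted p = 0.0520) in the wild type, and with the replicate number as a block the wild type had 0.54 (adjusted p = 0.0336). Within replicates 2 and 3 the change of Tk was 1.42 in the mutant and 1.23 in the wild type, and within the other replicates 0.46 in the mutant and 0.0018 in the wild type. These replicates are set apart here because of such levels, so the split values are a description with no test.

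FMRFa, the precursor of the FMRFamide-related peptides, had 2.18, 3.52, 3.96 and 2.96 CPM in mutant Fmr1 libraries, against 1.32, 0.891, 1.55 and 1.82 CPM in mutant inputs. It rose by 1.19 ± 0.45 (adjusted p = 0.0302), a call lost without replicate 2 or 3 of either group (highest adjusted p = 0.119). Its wild-type Fmr1 libraries had 1.14, 4.07, 3.77, 1.45 and 2.72 CPM, against 1.08, 1.31, 1.58, 2.42 and 1.18 CPM in wild-type inputs, again highest in Fmr1 replicates 2 and 3, and its change was 0.78 ± 0.41 (adjusted p = 0.117). Described in the same way, FMRFa had differences of 1.60 in the mutant and 1.42 in the wild type within replicates 2 and 3, and of 0.64 in the mutant and 0.10 in the wild type within the others. Nplp1 and sNPF were likewise highest in the wild-type Fmr1 libraries of replicates 2 and 3. The labels do not say what a replicate number stands for.

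Of the hormones of moulting, feeding and the clock, Eh, CCAP, Crz, CCHa2 and Pdf fell in both genotypes. Eh, the eclosion hormone, fell by 1.31 ± 0.40 in the mutant and 1.55 ± 0.37 in the wild type, and CCAP, the cardioactive peptide of the moulting sequence, by 1.29 ± 0.38 and 1.64 ± 0.35. Crz, the stress peptide corazonin, fell by 1.53 ± 0.44 in the mutant and 1.61 ± 0.39 in the wild type. Pdf fell by 1.40 ± 0.34 in the mutant and by 0.98 ± 0.30 in the wild type. Burs, a subunit of the hormone that hardens the cuticle, had −0.24 ± 0.68 in the mutant and −0.06 ± 0.63 in the wild type. The 5 water balance peptides had changes of −0.64 to 0.29 in the mutant, which did not pass, and Lk and Capa fell in the wild type, by 1.05 ± 0.41 and 0.73 ± 0.26. The Lk call was lost without any 1 of 6 libraries (highest adjusted p = 0.124) and the Capa call without wild-type input replicate 5 or 7 or wild-type Fmr1 replicate 5 (highest adjusted p = 0.110). The Lk libraries were wild-type inputs 1 and 7 and wild-type Fmr1 replicates 1, 2, 3 and 5. With the replicate number as a block, Capa in the mutant (−0.66, adjusted p = 0.0352) and ITP in both genotypes (−0.69 in the mutant, adjusted p = 0.00402, and −0.52 in the wild type, adjusted p = 0.0125) also passed. Without the block, ITP had −0.62 ± 0.26 in the mutant and −0.47 ± 0.23 in the wild type, and Capa −0.64 ± 0.28 in the mutant. ITP levels were 86.7, 44.0, 49.8 and 60.8 CPM in mutant Fmr1 libraries, against 87.4, 89.4, 99.9 and 93.2 CPM in mutant inputs. The wild-type Fmr1 libraries had 109.4, 56.3, 53.9, 83.8 and 61.0 CPM, against 125.3, 93.9, 91.7, 97.1 and 96.5 CPM in wild-type inputs. Here replicates 2 and 3 were the lowest Fmr1 libraries. Within them the change of ITP was −1.02 in the mutant and −0.78 in the wild type, and within the other replicates −0.37 in the mutant and −0.35 in the wild type, again with no test.

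**Figure D3:**
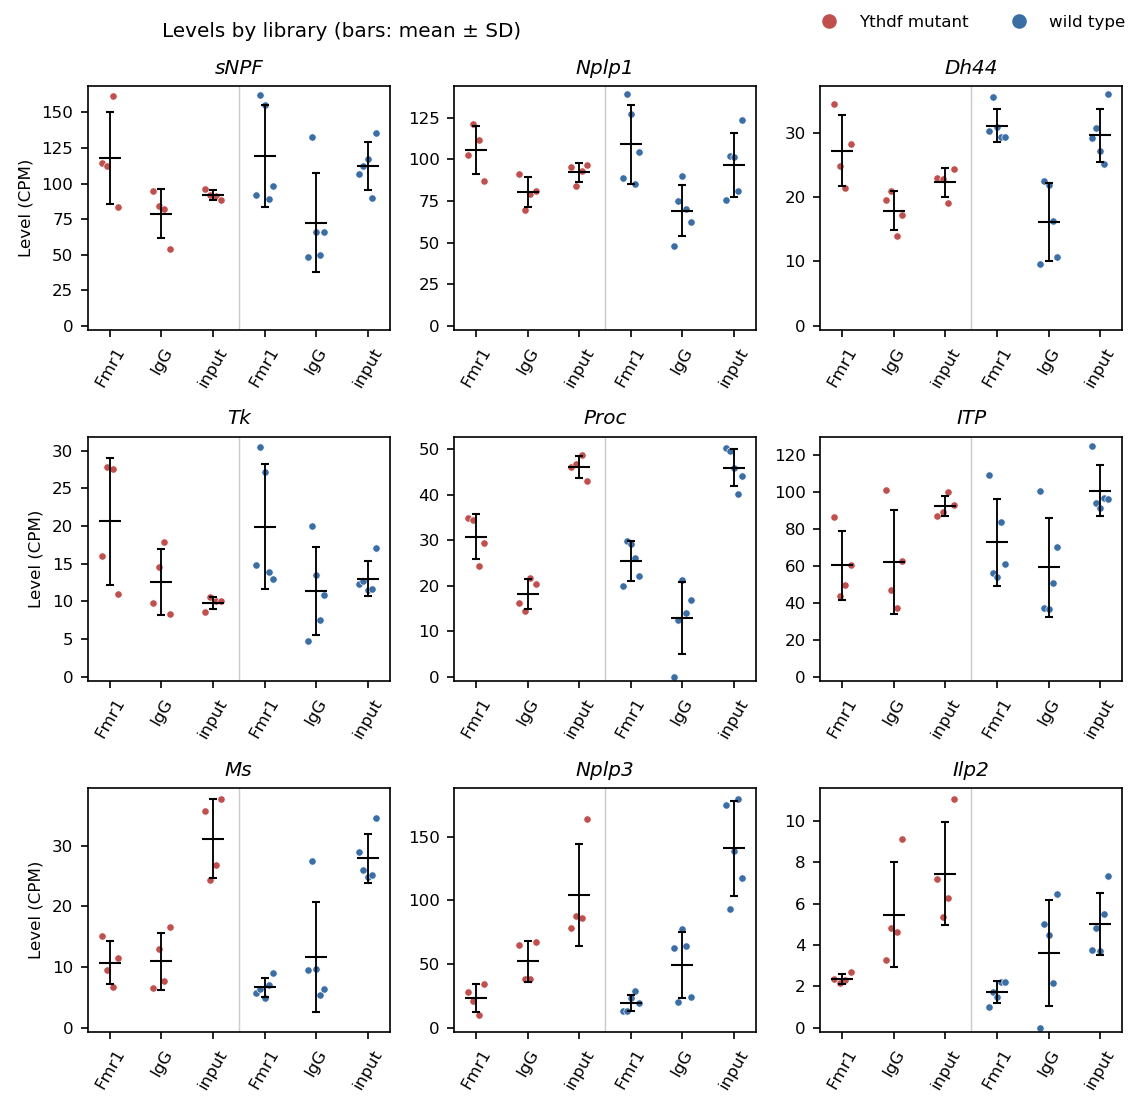
Level in CPM of 9 precursors in each library, with the 3 Ythdf mutant groups left of the 3 wild-type groups and bars for mean ± SD. Proc, Ms, Nplp3 and Ilp2 are lower in Fmr1 libraries than in inputs of the same genotype, whereas Tk, sNPF and Nplp1 each have 2 wild-type Fmr1 libraries well above the other 3.

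Transcript length moved with these changes. Precursor mRNAs are short. Their longest annotated transcript had a median of 1049 bases (478 to 3953, 32 precursors), against 2023.5 bases over the 10432 protein-coding genes tested. Among coding genes under 1 kb, 66.7% were lower than input in the mutant and 68.5% in the wild type, and of the 15 precursors in this class 10 and 13 were. Among coding genes of 1 to 2 kb, 28.7% were lower in the mutant and 31% in the wild type, and of 12 precursors 6 and 7 were. Among those of 2 to 4 kb, 7.45% and 9.27% were lower, and of 5 precursors 1 in the mutant and 0 in the wild type. In the shortest class 6 of 15 precursors lie below the class median in the mutant and 9 of 15 in the wild type. Of the 5 precursors of 2 to 4 kb, 3 lie below the class median in the mutant and 5 in the wild type.

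Across the 32 precursors, the log2 fold change over input had a Spearman correlation with length of 0.545 in the mutant and 0.736 in the wild type. Across the 10432 coding genes it was 0.706 and 0.683. These are descriptions across genes, which share their libraries and are not independent. Over IgG the correlation was 0.378 in the mutant and 0.47 in the wild type for the precursors. Nplp1, sNPF and Dh44, 3 of the 5 precursors called higher over IgG in the wild type, have transcripts of 2695, 2447 and 2372 bases, and Proc and Hug have 1977 and 1033. The longest precursor, amn with 3953 bases, went the other way, at −2.95 ± 0.72 over IgG in the wild type. Over input amn had −1.75 ± 0.72 in the mutant. These values rest on 162 counts over all libraries. Among coding genes of 2 to 4 kb, 23.3% were called higher and 6.98% lower over IgG in the wild type, and of 5 precursors 3 were higher and 1 lower. The part of length in these results was not tested.

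**Figure D4:**
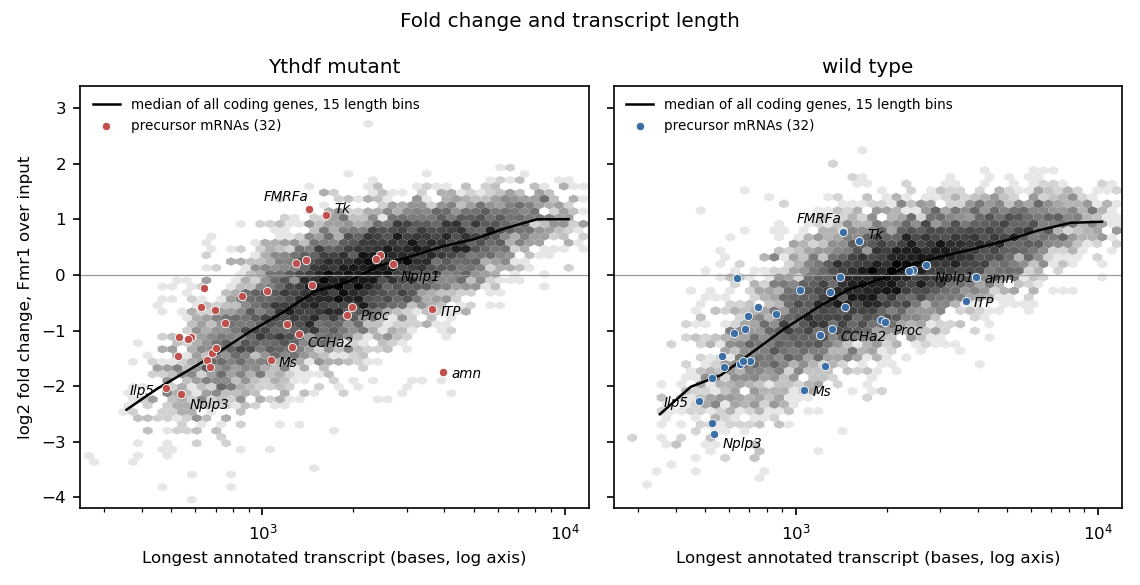
Log2 fold change of Fmr1 over input against the longest annotated transcript (log axis), Ythdf mutant left and wild type right, with precursors as coloured points on the density of all coding genes (grey; a few genes outside the axes are not drawn) and their median in 15 length bins as a line. Most precursors follow the line upwards with length, with Spearman correlations of 0.545 in the mutant and 0.736 in the wild type. Tk and FMRFa lie above it while ITP lies below it in both genotypes. The longest precursor, amn (3953 bases), is at −1.75 in the mutant.

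The precursors called in the IgG pull-down relative to input were also mostly lower. In the mutant, edgeR called 4 of 32 precursors lower in IgG libraries than in inputs and 0 higher, where 11.2% of all genes were called (5.77% lower and 5.46% higher). For the wild type 16 were lower and 1, amn, was higher, where 29.3% of all genes were called (14.6% lower and 14.7% higher). Of the mutant changes 11 had an unadjusted p under 0.05, against 26.8% of all genes, and DESeq2 also called 0 higher. With relative-log-expression size factors the all-gene calls became 802 higher and 512 lower in the mutant (626 and 662 with TMM) and 2165 higher and 1185 lower for the wild type (1689 and 1676 with TMM). The precursors' calls became 0 higher and 4 lower in the mutant and 1 higher and 12 lower for the wild type. Proc and Ms were lower in both genotypes, by 1.28 ± 0.23 and 1.35 ± 0.33 in the mutant and 1.55 ± 0.22 and 1.58 ± 0.32 in the wild type. The mutant call of Ms was lost without mutant IgG replicate 3 (adjusted p = 0.0620). Ilp5 and Eh were the other mutant calls, at −1.87 ± 0.57 and −1.87 ± 0.61, and each was lost without any 1 of 6 libraries (highest adjusted p = 0.155 and 0.178). These were mutant inputs 1, 3 and 7 for both, mutant IgG replicates 1, 2 and 7 for Ilp5 and mutant IgG replicates 1, 2 and 3 for Eh. With the replicate number as a block, the mutant count was 8, with Nplp3 (−1.03, adjusted p = 0.0103), Pdf (−1.34, adjusted p = 0.0239), AstC (−0.97, adjusted p = 0.0473) and ITP (−0.71, adjusted p = 0.0251) added. The 11.2% above is the share without the block, and that with the block is not given here.

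Wild-type AstC (−1.43 ± 0.31), AstA (−1.02 ± 0.24), Dh44 (−0.89 ± 0.20), Nplp3 (−1.53 ± 0.36) and Hug (−1.0 ± 0.29) fell as well, and their calls held without any 1 library. Nplp1 and sNPF fell by 0.45 ± 0.17 and 0.66 ± 0.23. The Nplp1 call was lost without wild-type input 2, 3 or 7 or wild-type IgG replicate 1, 2, 5 or 7, and the sNPF call without wild-type input 1, 2, 3 or 7 or wild-type IgG replicate 1, 3, 5 or 7 (highest adjusted p = 0.154 and 0.165). Pdf, NPF, Crz, SIFa, Ilp5, ITP and CCHa1 fell by 0.84 to 1.81, and amn rose by 2.92 ± 0.74. The calls of Pdf, NPF, Crz, SIFa, Ilp5, CCHa1 and amn were lost without wild-type IgG replicate 7, and those of ITP and NPF without wild-type IgG replicate 3. SIFa was also lost without wild-type IgG replicate 2 or wild-type input 5 or 7, and Ilp5 without wild-type IgG replicate 5 or wild-type input 2 or 7 (highest adjusted p among these calls = 0.231). All 5 precursors that were higher in Fmr1 than in IgG in the wild type were also lower in IgG than in input, a comparison with the same IgG libraries. With the same Fmr1 libraries, Nplp1, sNPF, Dh44 and Hug had changes over input of 0.17 ± 0.16, 0.09 ± 0.21, 0.07 ± 0.16 and −0.27 ± 0.20, none of which passed.

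Between genotypes, edgeR called 0 of 32 precursors in the inputs, where 5.68% of all genes were called (3.33% higher and 2.35% lower in the mutant). An unadjusted p under 0.05 was reached by 4 precursors, against 18.9% of all genes, and DESeq2 also called 0. A fit to the inputs alone called 3, namely CCHa2 (0.71, adjusted p = 0.00117), Dh44 (−0.41, adjusted p = 0.0280) and Tk (−0.41, adjusted p = 0.0479). The 5.68% above belongs to the fit over 6 groups, and the all-gene share of the fit to the inputs alone is not given here. CCHa2, a nutrient-sensitive hormone of fat body and gut that promotes insulin release, came closest. It had 17.2, 19.3, 22.6 and 22.8 CPM in mutant inputs, against 12.6, 12.8, 13.9, 11.9 and 10.9 CPM in wild-type inputs. All mutant inputs lie above all wild-type inputs. Its log2 fold change was 0.72 ± 0.24 with an adjusted p of 0.0784. Within replicates 2 and 3 the change of CCHa2 was 0.64, a description with no test. The others under 0.05 before adjustment were Dh44 (−0.41 ± 0.17), Nplp4 (−1.33 ± 0.61) and amn (1.44 ± 0.68). Dh44 and Tk (−0.41 ± 0.28) were lower in every mutant input than in every wild-type input. The share of all genes whose inputs are apart in this way is not given here. The 4 insulin-like peptides had changes of 0.16 to 0.56, none of which passed. Beside these, the 10 neuron markers had a median change of −0.51 in mutant inputs, 7 of them with an unadjusted p under 0.05 (18.9% of all genes) and none passing the adjusted threshold. The part of neuronal content in these results was not tested.

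In the IgG libraries CCHa2 was the precursor called between genotypes, with a higher level in the mutant, where 4.27% of all genes were called (2.09% higher and 2.18% lower; 189 higher and 303 lower genes with relative-log-expression size factors, 240 and 250 with TMM). It had 32.6, 19.4, 17 and 58.9 CPM in mutant IgG libraries, against 4.80, 7.50, 10.3, 11.9 and 11.5 CPM in wild-type IgG libraries. The groups do not overlap, and the log2 fold change was 1.71 ± 0.31 (adjusted p = 0.00147). The call was lost without mutant IgG replicate 7, at 1.06 (adjusted p = 0.0608), and in a fit to the IgG libraries alone (1.66, adjusted p = 0.0620). In Fmr1 libraries CCHa2 had 10.5, 6.93, 8.57 and 13.3 CPM in the mutant and 7.18, 5.01, 4.86, 7.45 and 7.26 CPM in the wild type. Over IgG it fell by 1.80 ± 0.28 in the mutant (adjusted p = 5.28e-05), a call that held without any 1 library. Without mutant IgG replicate 7 the value was −1.15 (adjusted p = 0.00625). The wild-type change over IgG was −0.72 ± 0.29 (adjusted p = 0.0556), and it passed with relative-log-expression size factors (−0.94, adjusted p = 0.0138) and in DESeq2 (−0.94, adjusted p = 0.0146). Over input it fell in both genotypes, by 1.06 ± 0.26 in the mutant and 0.97 ± 0.23 in the wild type.

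Fat body RNA was more abundant in the IgG libraries. The summed level of 6 fat body markers was 1227 to 8007 CPM in mutant IgG libraries and 1190 to 3569 CPM in wild-type IgG libraries, against 242.2 to 301.2 and 166.9 to 244.7 CPM in the inputs and 122.2 to 452.3 and 90.6 to 382.2 CPM in the Fmr1 libraries of mutant and wild type. All 6 markers were higher in IgG than in input in both genotypes, with medians of 4.52 and 3.75 on the log2 scale, and none was at 0 in a group. Over all genes 5.46% were higher in the mutant and 14.7% in the wild type. Their median change between mutant and wild-type IgG libraries was 1.12, with 4 of 6 under an unadjusted p of 0.05 (19.5% of all genes) and none passing. Lsp2, a larval serum protein, rose in mutant inputs (97.7 CPM on average, against 23.8 CPM in wild-type inputs, 2.04 ± 0.55, adjusted p = 0.0283). The other 5 markers were not called between the inputs, and 2 of them had negative changes. These were Lsp1beta at −0.42 ± 0.47 and Lsp1gamma at −0.42 ± 0.35. Ilp6, which the fat body also makes, had 104, 37.1, 55.8 and 94.1 CPM in mutant IgG libraries, against 66.8, 71.9, 87.1 and 57.0 CPM in mutant inputs. Its fall in Fmr1 relative to IgG in the mutant (−0.74 ± 0.24, adjusted p = 0.0286) was lost without mutant Fmr1 replicate 2 or 3 or mutant IgG replicate 1 or 7 (highest adjusted p = 0.169). Mutant IgG replicate 1 had the lowest marker sum of its group, 1227 CPM, with 104 CPM of Ilp6 and 32.6 CPM of CCHa2. Mutant IgG replicate 7 had the highest, 8007 CPM, with 94.1 CPM of Ilp6 and 58.9 CPM of CCHa2. Wild-type IgG replicate 1 had the highest of its group, 3569 CPM, with 67.25 CPM of Ilp6 and 4.80 CPM of CCHa2. CCHa2 averaged 9.21 CPM in wild-type IgG libraries and 12.4 CPM in wild-type inputs. The part of fat body RNA in the CCHa2 and Ilp6 results was not tested.

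**Figure D5:**
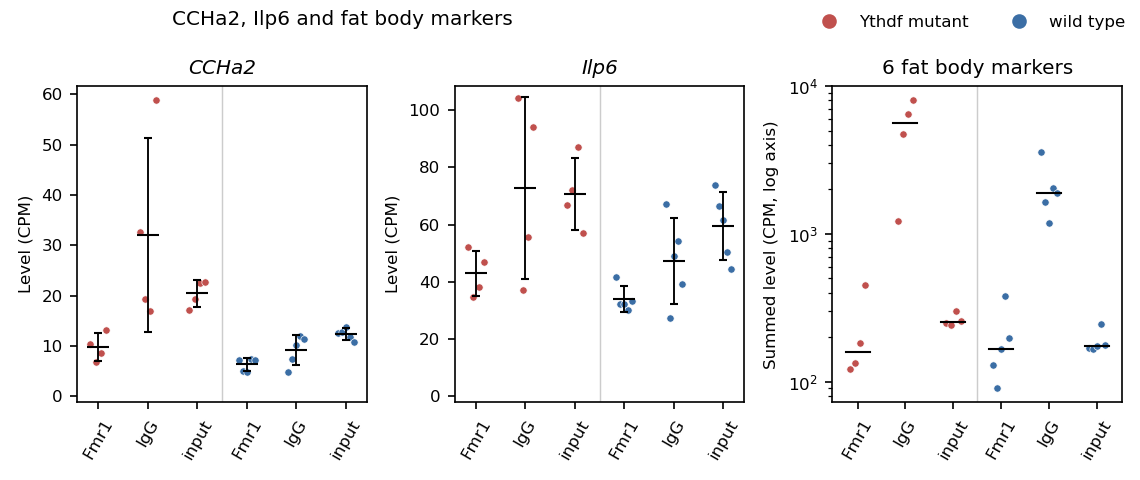
Level in CPM of CCHa2 and Ilp6 in each library (bars for mean ± SD) and summed level of 6 fat body markers (log axis, bars at the median), with the 3 Ythdf mutant groups left of the 3 wild-type groups. CCHa2 reaches 58.9 CPM in a mutant IgG library and stays at or below 11.9 CPM in wild-type IgG libraries, and the fat body sum is at least 1190 CPM in all IgG libraries and at most 452.3 CPM in all others.

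The difference of the Fmr1 changes between genotypes was tested directly. For Fmr1 over IgG, edgeR called 0 of 32 precursors and 0% of all genes different between mutant and wild type, and 2 precursors had an unadjusted p under 0.05, CCHa2 (−1.08 ± 0.40, adjusted p = 0.901) and Hug (−1.12 ± 0.45, adjusted p = 0.908). For Fmr1 over input it called 0 of 32 precursors and 0.00872% of all genes, and no precursor had an unadjusted p under 0.05. Over all genes, 4.39% had such a p for the difference over IgG and 1.72% for that over input. DESeq2 called 0 precursors in both. Tk and FMRFa, called over input in the mutant and not in the wild type, differed between genotypes by 0.46 ± 0.39 and 0.41 ± 0.60, and Nplp1 and sNPF, called over IgG in the wild type and not in the mutant, by −0.21 ± 0.25 and −0.12 ± 0.35. Of these 4 differences, that of Tk was larger than its SE. The difference of Ms over input was 0.53 ± 0.37 and that of Nplp3 0.71 ± 0.48.

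The machinery that turns precursors into peptides was read from lists of other genes. Of 11 maturation enzymes, 2 were higher and 3 lower than input in the Fmr1 libraries of the mutant, and 1 was higher and 3 lower in the wild type. Over all genes 21.7% were higher and 24.8% lower in the mutant and 23.2% higher and 25.6% lower in the wild type, so the counts of enzymes lie near the background. Fur2, a furin-like protease that cuts precursor proteins, rose by 1.19 ± 0.14 in the mutant and 1.32 ± 0.13 in the wild type (adjusted p = 3.07e-07 and 7.94e-09), and over IgG by 0.70 ± 0.14 and 0.94 ± 0.13. Amon, the prohormone convertase of neuropeptides, rose by 0.41 ± 0.16 over input in the mutant, and by 0.42 ± 0.15 over IgG in the wild type. It did not pass over IgG in the mutant (0.41 ± 0.17, adjusted p = 0.0833) or over input in the wild type (0.26 ± 0.15, adjusted p = 0.142). QC, the glutaminyl cyclase, fell by 0.85 ± 0.25 in the mutant and 0.63 ± 0.23 in the wild type, and svr, a carboxypeptidase, by 0.33 ± 0.13 and 0.57 ± 0.12. Phm, which starts C-terminal amidation, fell by 0.39 ± 0.16 in the mutant and 0.61 ± 0.14 in the wild type.

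Of 14 genes of dense-core vesicle formation and release, 5 were higher and 1 lower than input in each genotype, and 3 in the mutant and 6 in the wild type were higher than IgG. The all-gene shares were 21.7% higher in the mutant and 23.2% in the wild type over input, and 10.8% and 16.4% over IgG. Tango1, needed for exit of large cargo from the endoplasmic reticulum, rose over input by 0.75 ± 0.15 in the mutant and 0.75 ± 0.14 in the wild type, and over IgG by 0.73 ± 0.16 and 0.86 ± 0.14. Rph, the rabphilin of vesicle docking, rose over input by 0.72 ± 0.15 in the mutant and 0.71 ± 0.14 in the wild type. Sytbeta, a synaptotagmin, rose over input by 0.79 ± 0.17 in the mutant and 0.48 ± 0.15 in the wild type. Arl1, a small GTPase of the Golgi, fell by 0.95 ± 0.24 in the mutant and 1.0 ± 0.22 in the wild type. IA-2, a vesicle membrane protein, had changes of 1.66 ± 0.40 in the mutant and 1.12 ± 0.35 in the wild type, but other genes lie within its span and its counts are uncertain.

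The receptors of these peptides were often higher in the Fmr1 libraries than in the inputs. Of 39 receptors of neuropeptides and peptide hormones, 17 were higher than input in the Fmr1 libraries of the mutant, against 21.7% of all genes, and 17 were higher and 1 lower in the wild type, against 23.2% and 25.6%. Their medians were 0.46 in the mutant and 0.39 in the wild type. Over IgG 7 were higher in the mutant, and 4 were higher and 3 lower in the wild type, against 10.8% of all genes higher in the mutant and 16.4% higher and 17% lower in the wild type. The receptor of sNPF, sNPF-R, rose over input by 1.22 ± 0.17 in the mutant and 1.32 ± 0.15 in the wild type, while sNPF itself had 0.36 ± 0.24 and 0.09 ± 0.21. AstC-R2, a receptor of AstC, rose by 1.08 ± 0.21 in the mutant and 1.06 ± 0.19 in the wild type, while AstC fell by 0.87 and 1.08. MsR2, a receptor of Ms, rose by 1.42 ± 0.27 in the mutant and 1.13 ± 0.25 in the wild type, and InR, the insulin receptor, by 0.71 ± 0.23 and 0.99 ± 0.21. Receptors were also higher in IgG than in input, 3 of 39 in the mutant with a median of 0.12, against 5.46% of all genes, and 12 of 39 in the wild type with a median of 0.45, against 14.7% of all genes. Over IgG the medians of the receptors in Fmr1 libraries were 0.30 in the mutant and −0.07 in the wild type. MsR2 and InR were among those that rose in IgG over input, MsR2 by 1.13 ± 0.34 in the mutant and 1.23 ± 0.29 in the wild type, and InR by 0.73 ± 0.24 and 0.87 ± 0.22. The difference between receptors and precursors, and the part of transcript length in it, were not tested.

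In the inputs 4 of 39 receptors were lower in the mutant than in the wild type, against 2.35% of all genes, and the median of the 39 was −0.26. All 10 neuron markers had negative changes in the same comparison, with the median of −0.51 given above, and their part in the receptor values was not tested. PK2-R2, a pyrokinin receptor of the kind that hugin peptides act on, averaged 1.92 CPM in mutant inputs and 8.60 CPM in wild-type inputs (−2.16 ± 0.26, adjusted p = 1.18e-06). Lgr1 (−0.78 ± 0.17), the glycoprotein hormone receptor, SPR (−0.96 ± 0.26), which binds sex peptide and Mip, and NPFR (−0.73 ± 0.20), the receptor of NPF, were the others. Their ligands Hug, Mip and NPF had −0.12 ± 0.22, −0.02 ± 0.28 and −0.23 ± 0.29 in the same comparison. Of 10 other peptide hormones tested, 4 were lower than input in the Fmr1 libraries of each genotype, against 24.8% of all genes in the mutant and 25.6% in the wild type. Among them Akh, the adipokinetic hormone, fell by 1.79 ± 0.28 in the mutant and 2.29 ± 0.25 in the wild type. Ilp8, the relaxin-like peptide released by growing tissue, averaged 24.5 CPM in mutant inputs and 11.6 CPM in wild-type inputs (1.08 ± 0.29, adjusted p = 0.0209).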

How the data were processed

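RNA from input, Fmr1 and IgG samples was sequenced as strand-specific, rRNA-depleted libraries with molecular barcodes, per the labels' protocols. The tools named are bcl2fastq 2.20, Trim Galore and STAR, per the submitters' processing notes; the build, the counter, its strand setting and the use of barcodes are not given in the sources used here. The authors deposited raw counts per gene for 27 libraries. Its rows for reads without a gene (23.8% to 74.7% of a library) were left out. Symbols, lengths and overlaps came from the Ensembl annotation of BDGP6.54, which held 17710 of 17807 gene identifiers. Exon coordinates of that annotation served for the lengths and overlaps.

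Genes passing filterByExpr (minimum count 10, minimum total 15; 6338 removed) were fitted over 6 groups with TMM and the robust quasi-likelihood test of edgeR 4.0.16 in R 4.3.3, with Benjamini-Hochberg adjustment over 11469 genes. Calls need an adjusted p under 0.05. The SE comes from the F statistic, or from the Poisson likelihood ratio where edgeR used that bound for p. Levels are TMM-scaled CPM. All precursors are named in each comparison where they passed, and of other lists up to 4 genes with the smallest p. Precursors, lists and tests were chosen with earlier results of these data known. DESeq2 1.42.0, other scalings, filters, blocks and sets of replicates were alternatives. The script was tested on simulated data.

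Input, Fmr1 and IgG samples of 1 lysate share their heads, per the labels' protocols, which do not tie the replicate number to a lysate; the block was genotype and replicate number, or the number alone between genotypes. Correlations of deviations from group means between libraries of the same number were 0.181 to 0.318 (mutant Fmr1 and IgG), 0.138 to 0.495 and 0.175 to 0.473 (Fmr1 and input, mutant and wild type) and 0.140 to 0.268 (mutant IgG and input). Libraries of these sets were regarded as pairs, but only the alternative fits with the block use the pairing. All other changes, SEs and adjusted p-values come from the fit by group without a block. They were 0.311 to 0.639 between mutant and wild-type Fmr1 libraries, which no comparison sets directly against each other. Replicates are called biological by the submitters. No 2 libraries were identical.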

Additional observations from a re-analysis of the deposited data

Results flagged for a closer look

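In 17 of 192 sets (a precursor in 1 group), the highest or lowest library stood apart from the others by a wide gap. The limit used for the gap is passed in about 1 in 20 sets of normal values of equal precision. CPM from libraries of unequal depth are not such values, so the flags are a description. Values are CPM. In the mutant, input replicate 7 had 164 of Nplp3 (others 78.7 to 88.2). IgG replicate 7 had 0.858 of Nplp4, 0.572 of Lk and 2.29 of Eh on 3, 2 and 8 counts, where the other mutant IgG libraries had 0. In that library 1 count is worth 0.286 CPM, against 0.775 to 3.26 CPM in the other mutant IgG libraries. IgG replicate 3 had 3.87 of Capa on 5 counts (others 6.45 to 6.58), and Fmr1 replicate 1 had 1.34 of Dsk (others 0.789 to 0.880).

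In the wild type, input replicate 7 had 17.1 of Tk (others 11.5 to 12.7), 1.84 of Lk (others 0.879 to 1.08) and 3.68 of Dsk (others 1.98 to 2.31). Input replicate 1 had 125 of ITP (others 91.7 to 97.1) and 2.52 of Nplp4 (others 0.525 to 0.769). IgG replicate 2 had 133 of sNPF (others 48.0 to 65.8) and 27.5 of Ms (others 5.42 to 9.67), on 53 and 11 counts. Fmr1 replicate 2 had 35.5 of Dh44 (others 29.4 to 31.0), Fmr1 replicate 7 had 1.05 of Lk (others 0.397 to 0.498), Fmr1 replicate 1 had 41.6 of Ilp6 (others 30.3 to 33.4) and Fmr1 replicate 5 had 1.45 of Capa (others 2.31 to 2.47).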

How the results depend on the processing

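Leaving out 1 library at a time, the number of precursors called ranged from 1 to 8 for Fmr1 over IgG in the mutant (6 with all) and 6 to 10 in the wild type (9), 14 to 20 and 17 to 21 for Fmr1 over input in mutant and wild type (19 and 20), 2 to 4 and 8 to 17 for IgG over input (4 and 17), and 0 to 2 for the IgG libraries between genotypes (1). It was 0 throughout for the inputs between genotypes and for both differences of differences. A fit to the compared groups alone gave 3 for Fmr1 over IgG in each genotype, 8 for IgG over input in the mutant, 3 for the inputs (CCHa2, Dh44 and Tk) and 0 for the IgG libraries between genotypes. Replicates 1, 5 and 7 alone gave 2 and 3 for Fmr1 over IgG in mutant and wild type, 10 for Fmr1 over input in the mutant and 0 for IgG over input in the mutant. Replicates 2 and 3 alone gave 2 for IgG over input in the wild type, 1 for the inputs and 0 for the IgG libraries between genotypes, and turned Ilp6 in mutant IgG over input to −0.72. Both sets of replicates were set apart because of levels in these data. Their counts are calls in fits with fewer libraries, so they cannot serve as a test of a replicate effect. These counts and values are a description only. Without the 5 shallowest IgG libraries, an alternative chosen after seeing the data, 5 were called for Fmr1 over IgG in the wild type. The all-gene shares of these fits are not given here, and the causes were not tested. The replicate block ended no call. It gave 8 for IgG over input in the mutant, and, where the numbers did not pair the samples, 11 for Fmr1 over IgG (Tk, 0.76, adjusted p = 0.0340, and CCHa2, −0.73, adjusted p = 0.0365, added) and 19 for IgG over input in the wild type, 1 for the inputs (CCHa2, 0.73, adjusted p = 0.0240) and 1 for the IgG libraries between genotypes. In these unpaired sets the correlations were −0.0128 to 0.326, −0.0476 to 0.154, 0.0214 to 0.354 and 0.0496 to 0.194. Fits in which a group had 0 counts of a gene gave no value. At these depths IgG levels of the rarer precursors rest on a few counts, and with 5 libraries against 4 the absence of calls between genotypes does not show that the precursors did not differ.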
